A study of Homo sapiens with 6 samples.

Results

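The genes described here are 47 genes of oxidant defence: the transcription factor gene NFE2L2 and its inhibitor KEAP1, and genes of heme breakdown, glutathione, thioredoxin, the peroxiredoxins, aldo-keto reductases and NADPH supply. They were chosen by name and role, by a rule that uses no measured value but was set with earlier results of these data known, as the rows of the deposited table whose gene symbol is on the list, and all 47 had a row among 30345. The table comes from polysome sequencing, in which RNA is read from the sucrose gradient fractions heavier than the single ribosome, of OSRC-2 cells (OS-RC-2 in the labels), a human line of clear cell renal cell carcinoma that lacks VHL function. Cells of 3 libraries received 2 µM PT2399, a small molecule that inhibits the transcription factor HIF2, for 72 h, and cells of the other 3 received vehicle for 72 h; the labels call the libraries of a group biological replicates. The dose is that of the treatment protocol, since the treatment label of the PT2399 libraries reads 2 mM. The model is a single cell line at a single dose and time.

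NRF2, the protein of NFE2L2, is held at a low level by KEAP1 and, when oxidants or electrophiles modify KEAP1, activates genes whose control regions hold an antioxidant response element (ARE). Its targets make glutathione, the main thiol of the cell, recycle it and thioredoxin with NADPH, reduce quinones and aldehydes, and break down heme. A clear cell renal cell carcinoma without VHL cannot degrade HIF2 and keeps its target genes active.

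The deposited values are the mean normalized count over all 6 libraries, the log2 fold change of PT2399 over vehicle, its standard error (SE) and the two-sided DESeq2 Wald p adjusted by Benjamini-Hochberg. A gene was called higher or lower at an adjusted p of at most 0.05. Values of single libraries were not analysed here, so the approximate level in each group was computed from the mean and the fold change and carries no spread of its own; the SE of the log2 fold change is the error of each comparison. The relative depths (size factors) of the libraries, which could be read off genes hit by a single read, were 0.782, 0.990 and 1.10 with PT2399 and 0.900, 1.10 and 1.19 with vehicle. The HIF2 target genes NDRG1 (1902 normalized counts with PT2399 and 9776 with vehicle), EGLN3 (1270 with PT2399 and 5159 with vehicle) and VEGFA (6346 with PT2399 and 17537 with vehicle) were all lower with PT2399. The renal transcription factor PAX8 had a mean of 17472 normalized counts, whereas the leukocyte gene PTPRC (1.85), the endothelial gene CDH5 (0.511) and the fibroblast gene LUM (1.36) were near 0; CD68, a macrophage marker that other cells also express, had 3555 and the collagen gene COL1A1 had 209. As a bulk measurement, the table cannot tell a change in every cell from a change in the share of some cells, nor more transcript from more of a transcript on polysomes.

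Of the 47 genes, 45 had an adjusted p, and 18 of these were higher with PT2399, 2 were lower and 25 were not called. The higher share was 40.0%, where 11.3% of all 15634 tested genes were higher, and the lower share was 4.44%, where 11.7% of all tested genes were lower (23.0% in either direction). The members without an adjusted p, called untested here, were the peroxidase genes GPX2, with a mean of 0.808 normalized counts, and GPX3, with 4.24. Both lay below the lowest tested mean of 14.5. The median log2 fold change of the tested members was 0.14, against 0.00 over all tested genes, and 35 of 45 (77.8%) lay above 0, against 50.7% of all tested genes. Among the 35 members at or above 1000 normalized counts, 16 were higher, 2 lower and 17 not called, where 17.6% of the 7218 tested genes in that range were higher and 16.7% lower (34.4% in either direction).

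**Figure D1:**
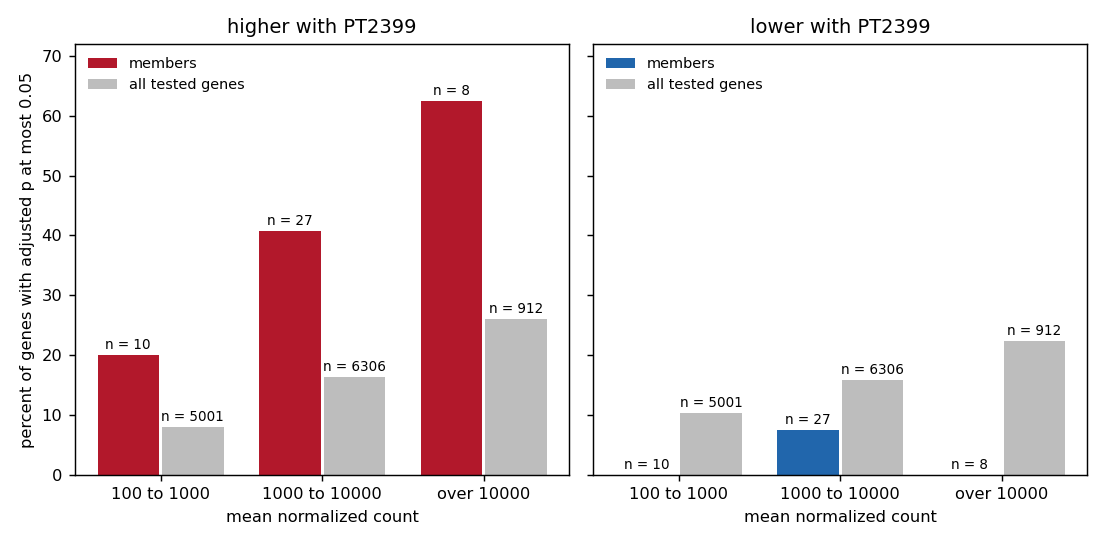
Bars show the percent of tested genes called higher (left panel) or lower (right panel) with PT2399 at an adjusted p of at most 0.05, for the members and for all tested genes in 3 ranges of mean normalized count, with the number of genes over each bar. Above 10000 normalized counts 5 of 8 members were higher (62.5%), against 26.1% of all 912 tested genes, and 0 of 8 were lower, against 22.4%.

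Most changes were small. Of the 20 called members 11 changed by less than 1.2-fold, and 7 exceeded 130% of the vehicle level. The 18 higher members spanned log2 fold changes of 0.14 to 0.97. Their median was 0.27, below the median of 0.30 over all 1766 higher genes, and 158 of those genes exceeded the largest member, HMOX1. These comparisons were not matched for abundance. The median of the mean normalized count was 3130 over the tested members and 824 over all tested genes. Of the 25 members that were not called, 22 had 95% intervals within 0.5 log2 units of 0.

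**Figure D2:**
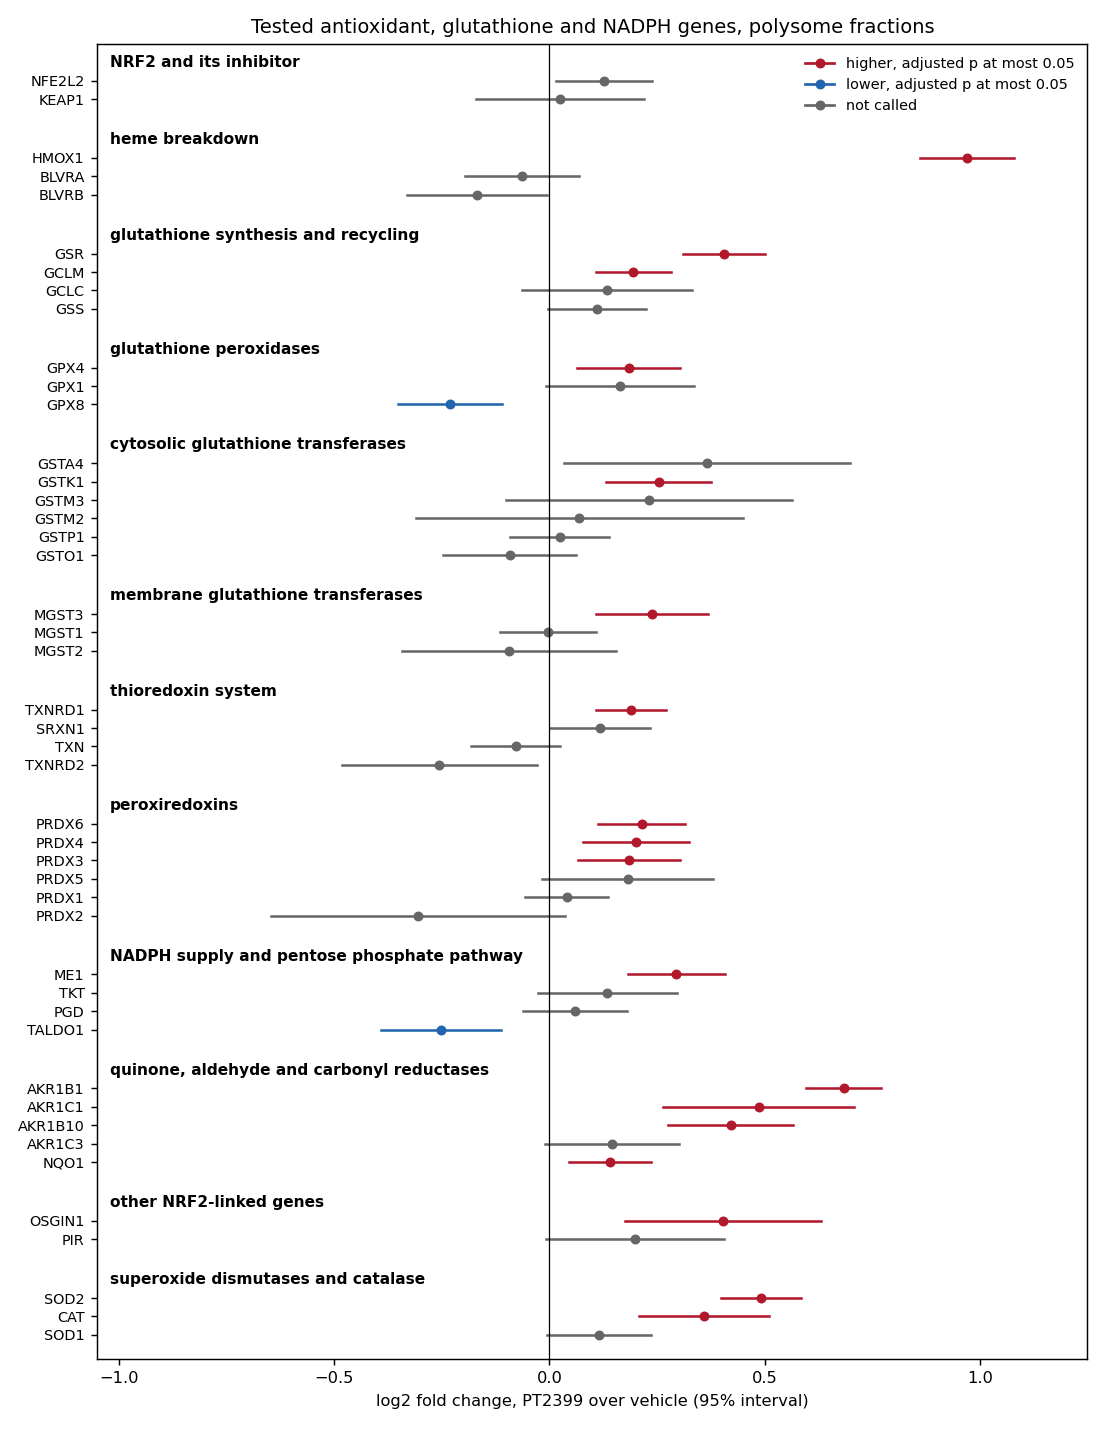
Points are the log2 fold change of PT2399 over vehicle for the 45 tested members, grouped by role, with 95% intervals (1.96 SE on each side) as lines. HMOX1 stands farthest to the right at 0.97, GPX8 at -0.23 and TALDO1 at -0.25 are the members called lower, and most other intervals lie between -0.5 and 0.5.

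NFE2L2 and KEAP1 were not called. NFE2L2 (ENSG00000116044) had 12755 normalized counts with PT2399 and 11681 with vehicle, a log2 fold change of 0.13 (SE 0.06, 95% interval 0.02 to 0.24) whose Wald adjusted p was 0.0931. KEAP1, the adaptor that targets NRF2 for ubiquitination, had 940 normalized counts with PT2399 and 924 with vehicle (log2 fold change 0.02, SE 0.10). The intervals hold NFE2L2 between 101% and 118% of its vehicle level and KEAP1 between 88.9% and 116%.

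Sequences upstream of the start site are shown for members whose RefSeq promoter window holds the ARE core, TGACNNNGC, because this is the element through which NRF2 acts. The windows run from 250 bases before to 50 bases after each RefSeq start (GRCh38.p14) and matched 39 of the 47 members with 54 windows. HMOX1, GSR, AKR1B10 and PRDX6, all called higher, had no window, nor had GSS, MGST2, PRDX1 and SOD1, which were not called. Elements outside the windows were not searched, so a member without a match may still have one elsewhere. The core, searched on both strands, was in 12 of the 54 windows (22.2%), against 13.3% of all 35116 windows. Those 35116 windows include genes not tested here. Counted by gene, 11 of the 39 members held it, where 19.4% of the 10306 tested genes with a window did. Among the genes called higher, GCLM, ME1 and TXNRD1 held it, and among the genes not called, PGD and GSTP1 are given beside them. Each stretch is written 5′ to 3′ on the gene's own strand, with the match in capitals.
GCLM, chr1:93909431-93909490, minus strand: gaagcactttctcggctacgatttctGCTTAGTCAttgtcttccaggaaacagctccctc
ME1, chr6:83431152-83431211, minus strand: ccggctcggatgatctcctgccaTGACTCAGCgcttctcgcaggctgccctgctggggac
TXNRD1, chr12:104215649-104215708, plus strand: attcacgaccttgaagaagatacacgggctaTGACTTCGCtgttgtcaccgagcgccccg
PGD, chr1:10398834-10398893, plus strand: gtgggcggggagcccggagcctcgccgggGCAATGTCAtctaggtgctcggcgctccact
GSTP1, chr11:67583712-67583771, plus strand: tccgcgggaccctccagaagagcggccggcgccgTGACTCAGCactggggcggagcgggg
In GCLM and PGD the core lies on the opposite strand, so the capitals show its reverse complement. By call, 3 of 14 higher members, 0 of 2 lower members, 7 of 21 members that were not called and 1 of 2 untested members had the core in a window, where 19.4% of 10306 tested genes with a window had it. The other members with the core that were not called were GSTA4, GSTO1, MGST1, KEAP1 and PIR, and the untested one was GPX2. The hypoxia response element core ACGTG was in 10 of the 54 windows (18.5%), against 21.4% of all windows, and in 3 of 14 higher members (PRDX3, PRDX4 and GPX4), 0 of 2 lower members and 4 of 21 members that were not called, where 32.0% of tested genes with a window had it. It too was searched on both strands, and in the members no match of one core overlapped a match of the other. A match describes letters and not a bound site.

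HMOX1 had the largest fold change of the tested members. HMOX1 (ENSG00000100292; chromosome 22, 35381096 to 35394207, GRCh38.p14) encodes heme oxygenase 1, the inducible enzyme that opens the heme ring to give biliverdin, iron and carbon monoxide. It had 6385 normalized counts with PT2399 and 3259 with vehicle, which is 196% of the vehicle level, a log2 fold change of 0.97 (SE 0.06, 95% interval 0.86 to 1.08) and a Wald adjusted p of 1.9e-65. The biliverdin reductases, the next step of the pathway, were not called. BLVRA had 2292 normalized counts with PT2399 and 2395 with vehicle (log2 fold change -0.06, SE 0.07), and BLVRB had 1209 with PT2399 and 1359 with vehicle (-0.17, SE 0.08, adjusted p = 0.136 in the DESeq2 Wald test).

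Of the 4 genes of glutathione synthesis and recycling, GSR and GCLM rose and GCLC and GSS were not called. GSR, glutathione reductase, which regenerates glutathione from its disulfide with NADPH, had 9063 normalized counts with PT2399 and 6842 with vehicle (log2 fold change 0.41, SE 0.05, DESeq2 Wald adjusted p = 5.2e-15). The ligase that joins glutamate to cysteine has a modifier subunit, GCLM, and a catalytic subunit, GCLC. GCLM had 19709 normalized counts with PT2399 and 17217 with vehicle (0.20, SE 0.04, DESeq2 Wald adjusted p = 1.2e-04), and GCLC had 1824 with PT2399 and 1663 with vehicle (0.13, SE 0.10). GCLC's interval, -0.06 to 0.33, spans the value of GCLM, so the call of GCLM alone does not separate the subunits, and their difference was not tested. GSS, glutathione synthetase, had 3718 normalized counts with PT2399 and 3443 with vehicle (0.11, SE 0.06).

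The glutathione peroxidases moved in both directions. GPX4, the selenoenzyme that reduces lipid hydroperoxides in membranes, rose to 4405 normalized counts with PT2399, against 3875 with vehicle (log2 fold change 0.18, SE 0.06, DESeq2 Wald adjusted p = 0.014). GPX8, a peroxidase of the endoplasmic reticulum, fell to 3764 normalized counts with PT2399, against 4418 with vehicle (-0.23, SE 0.06, DESeq2 Wald adjusted p = 0.0015). The intervals of the 2 genes, 0.07 to 0.30 and -0.35 to -0.11, did not overlap. GPX1, the abundant cytosolic enzyme, had 2316 normalized counts with PT2399 and 2068 with vehicle (0.16, SE 0.09) and was not called. GPX1, GPX2, GPX3 and GPX4, with the thioredoxin reductases TXNRD1 and TXNRD2, are selenoproteins. Of the 4 tested ones 2 were higher (50.0%) and 2 were not called, where 11.3% of all tested genes were higher and 11.7% lower.

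Among the glutathione transferases, which attach glutathione to electrophiles, GSTK1 and MGST3 rose. GSTK1, of the mitochondrial and peroxisomal kappa class, had 3404 normalized counts with PT2399 and 2855 with vehicle (log2 fold change 0.25, SE 0.06, DESeq2 Wald adjusted p = 4.1e-04). MGST3, a membrane-bound member, had 2665 with PT2399 and 2259 with vehicle (0.24, SE 0.07, DESeq2 Wald adjusted p = 0.0027). The other 5 soluble and 2 membrane transferases were not called. Among them MGST1, with 15489 normalized counts with PT2399 and 15520 with vehicle, had a log2 fold change of 0.00 with an interval of -0.11 to 0.11. GSTP1, the pi class enzyme, had 4943 normalized counts with PT2399 and 4861 with vehicle (0.02, SE 0.06), and GSTO1 had 1627 with PT2399 and 1735 with vehicle (-0.09, SE 0.08). At lower counts the errors were wider and small changes were not detectable. GSTA4, which acts on lipid aldehydes, had 252 normalized counts with PT2399 and 196 with vehicle (0.37, SE 0.17, adjusted p = 0.107 in the DESeq2 Wald test). The values were 0.23 (SE 0.17) for GSTM3, 0.07 (SE 0.19) for GSTM2 and -0.09 (SE 0.13) for MGST2.

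In the thioredoxin system only the cytosolic reductase TXNRD1 was called among the 4 members. TXNRD1, which reduces thioredoxin with NADPH, had 51758 normalized counts with PT2399 and 45396 with vehicle (log2 fold change 0.19, SE 0.04, DESeq2 Wald adjusted p = 6.9e-05). Its mitochondrial counterpart TXNRD2 had 527 with PT2399 and 629 with vehicle (-0.26, SE 0.12, adjusted p = 0.0970 in the DESeq2 Wald test). The intervals of TXNRD1, 0.11 to 0.27, and of TXNRD2, -0.48 to -0.03, did not overlap, but their difference was not tested. TXN, thioredoxin itself, had 6795 normalized counts with PT2399 and 7174 with vehicle (-0.08, SE 0.05). SRXN1, sulfiredoxin, which restores overoxidized peroxiredoxins, had 5314 with PT2399 and 4897 with vehicle (0.12, SE 0.06, adjusted p = 0.146 in the DESeq2 Wald test).

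Of the 6 peroxiredoxins, PRDX3, PRDX4 and PRDX6 rose and PRDX1, PRDX2 and PRDX5 were not called. PRDX6, which reduces peroxides with glutathione, had 9471 normalized counts with PT2399 and 8163 with vehicle (log2 fold change 0.21, SE 0.05, DESeq2 Wald adjusted p = 3.2e-04). PRDX4, of the endoplasmic reticulum, had 3226 with PT2399 and 2806 with vehicle (0.20, SE 0.06, DESeq2 Wald adjusted p = 0.0079), and PRDX3, of mitochondria, had 10085 with PT2399 and 8864 with vehicle (0.19, SE 0.06, DESeq2 Wald adjusted p = 0.012). These 3 changes lay within a narrow band, 114% to 116% of vehicle. PRDX1, a cytosolic form, had 15991 normalized counts with PT2399 and 15547 with vehicle (0.04, interval -0.06 to 0.14). PRDX5 had 1968 with PT2399 and 1735 with vehicle (0.18, SE 0.10), a value close to that of PRDX3 with a wider error. PRDX2 had 182 with PT2399 and 224 with vehicle (-0.30, SE 0.17), the lowest log2 fold change of the tested members, with an interval of -0.65 to 0.04.

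The 4 members of NADPH supply and the pentose phosphate pathway were divided, with ME1 higher, TALDO1 lower and PGD and TKT not called. ME1, malic enzyme 1, which makes NADPH in the cytosol while turning malate into pyruvate, had 4665 normalized counts with PT2399 and 3802 with vehicle (log2 fold change 0.30, SE 0.06, DESeq2 Wald adjusted p = 4.1e-06). TALDO1, transaldolase, of the non-oxidative branch of the pentose phosphate pathway, had 3014 with PT2399 and 3589 with vehicle (-0.25, SE 0.07, DESeq2 Wald adjusted p = 0.0031), 84.0% of the vehicle level. TKT, transketolase, works in the same branch and had 7137 with PT2399 and 6501 with vehicle (0.13, interval -0.03 to 0.30), which does not overlap the interval of TALDO1, -0.39 to -0.11. PGD, the second NADPH-producing dehydrogenase of the oxidative branch, had 2623 normalized counts with PT2399 and 2519 with vehicle (0.06, SE 0.06).

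Of the 5 quinone, aldehyde and carbonyl reductases among the members 4 were higher (80.0%), the highest share of calls among these small role groups. Of all tested genes 11.3% were higher, and 17.6% of those at or above 1000 normalized counts. The share belongs to the reductases placed on the member list. In the wider list described below, 2 of 9 reductases and detoxification genes were higher, EPHX1 and UGDH. The reductase genes NQO2, CBR1, CBR3 and AKR1A1 of that list were not called. AKR1B1 (ENSG00000085662; chromosome 7, 134442350 to 134459239, GRCh38.p14) encodes aldose reductase, which turns glucose into sorbitol with NADPH and also reduces lipid aldehydes. It had 224171 normalized counts with PT2399 and 139592 with vehicle, 161% of the vehicle level, a log2 fold change of 0.68 (SE 0.04, 95% interval 0.60 to 0.77) and a Wald adjusted p of 1.4e-50. By mean normalized count, which is not corrected for length, this gene ranked 8 among all 30345 rows. The members summed to 0.967% of all normalized counts, and to 0.566% without AKR1B1. The ratio of PT2399 to vehicle in that sum was 1.31 with AKR1B1 and 1.13 without it.

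AKR1B10, the neighbouring aldo-keto reductase of retinal and aldehydes, had 3975 normalized counts with PT2399 and 2969 with vehicle (log2 fold change 0.42, SE 0.07, DESeq2 Wald adjusted p = 2.9e-07). AKR1C1, a hydroxysteroid dehydrogenase, had 788 with PT2399 and 562 with vehicle (0.49, SE 0.11, DESeq2 Wald adjusted p = 2.0e-04), and its relative AKR1C3 had 1878 with PT2399 and 1698 with vehicle (0.14, SE 0.08, adjusted p = 0.196 in the DESeq2 Wald test). NQO1, the quinone reductase often used as a marker of NRF2 activity, had the smallest called rise, with 15355 normalized counts with PT2399 and 13926 with vehicle (0.14, SE 0.05, DESeq2 Wald adjusted p = 0.019). AKR1B1 and AKR1B10 lie 68.3 kb apart on chromosome 7, and AKR1C1 and AKR1C3 lie 65.5 kb apart on chromosome 10. The genes around these pairs, within 400 kb, were picked after their values were seen. Of the tested neighbours on chromosome 7, CALD1 at 0.26 (SE 0.05) was higher, EXOC4 at -0.26 (SE 0.07) was lower, and AKR1B15 at 1.22 (SE 0.58), SLC35B4 at 0.20 (SE 0.08), BPGM at 0.15 (SE 0.09) and LRGUK at -0.03 (SE 0.38) were not called. On chromosome 10 AKR1C2, a near copy of AKR1C1 that can share its reads, had 133 normalized counts with PT2399 and 77.3 with vehicle (0.79, SE 0.41) and was not called.

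**Figure D3:**
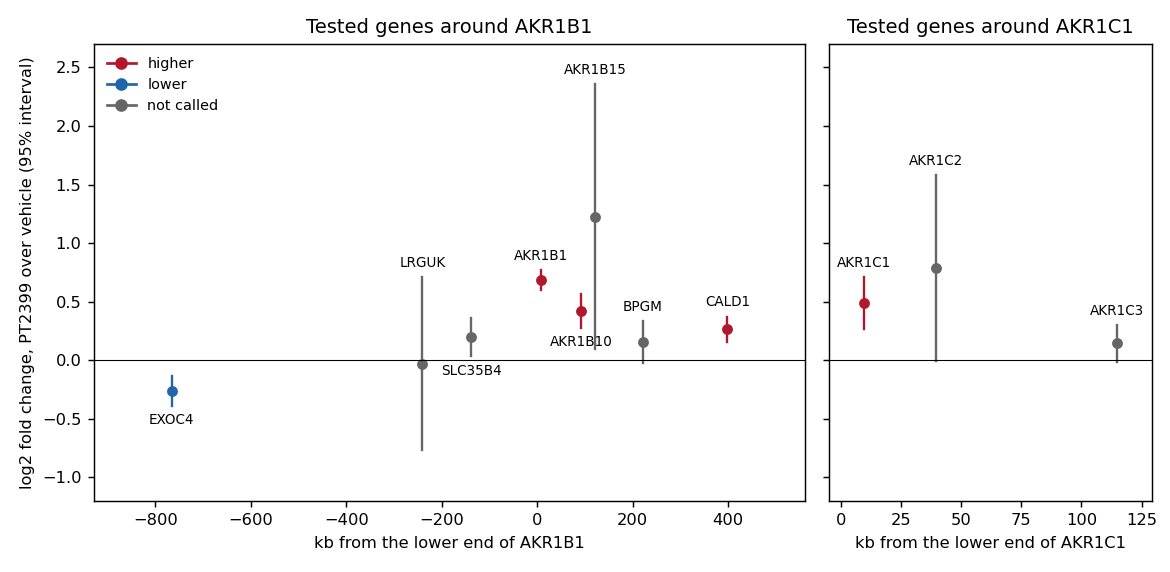
Points are the log2 fold change of PT2399 over vehicle, with 95% intervals as lines, of the tested genes that reach within 400 kb of AKR1B1 (left) and AKR1C1 (right), placed by the distance in kb of each gene's midpoint from the lower end of the named gene. AKR1B1 and AKR1B10 are called higher between neighbours of mixed sign, and the interval of AKR1B15, at a mean of 18.8 normalized counts, is the widest.

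OSGIN1, an oxidative stress induced growth inhibitor, rose to 575 normalized counts with PT2399, against 435 with vehicle (log2 fold change 0.40, SE 0.12, DESeq2 Wald adjusted p = 0.0036). PIR, pirin, an iron-binding nuclear protein, had 925 with PT2399 and 806 with vehicle (0.20, SE 0.11) and was not called. Among the enzymes that act on superoxide and hydrogen peroxide, SOD2 and CAT rose. SOD2, the manganese superoxide dismutase of mitochondria, had 23328 normalized counts with PT2399 and 16589 with vehicle (0.49, SE 0.05, DESeq2 Wald adjusted p = 8.2e-23), 141% of the vehicle level. CAT, the peroxisomal catalase, had 2625 with PT2399 and 2046 with vehicle (0.36, SE 0.08, DESeq2 Wald adjusted p = 4.1e-05). SOD1, the cytosolic copper and zinc enzyme, had 2899 with PT2399 and 2678 with vehicle (0.11, interval -0.01 to 0.23), an interval that lay below that of SOD2, 0.40 to 0.59.

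**Figure D4:**
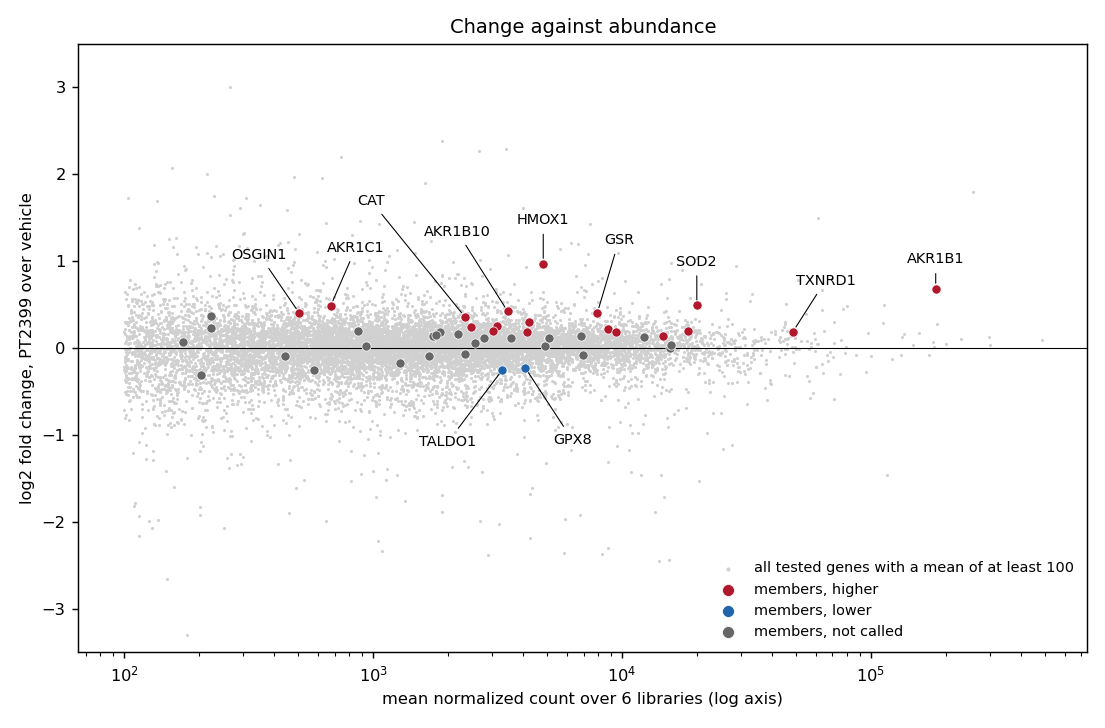
Each grey point is a tested gene at or above 100 normalized counts, placed by its mean over the 6 libraries (log axis) and its log2 fold change of PT2399 over vehicle, and coloured points are the 45 tested members. AKR1B1 lies far to the right at a mean of 181881 and a log2 fold change of 0.68, and the members called lower, GPX8 and TALDO1, lie at 4091 and 3301 normalized counts.

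Ranks and means of normalized counts grow with transcript length, so levels of different members were also set side by side per kilobase, with the length of the canonical GENCODE transcript, although the isoform in use is not known. By mean normalized counts per kilobase AKR1B1 came first at 133638, followed by MGST1 at 16762, PRDX1 at 16687, TXNRD1 at 12585, TXN at 9477 and GSTP1 at 6615. Of these 6 most abundant members AKR1B1 and TXNRD1 were higher with PT2399 and the other 4 were not called, where 11.3% of all tested genes were higher. The order depends on the lengths used. SOD2, a higher member with a mean of 19959 normalized counts, came to 1409 per kilobase with a canonical transcript of 14167 nucleotides. Of the 13 tested members under 1000 nucleotides 2 were higher, PRDX4 and GPX4 (15.4%, against 7.92% of all tested genes of that length). In that range 0 members were lower, against 9.95% of all, and the median was 0.02 on the log2 scale. From 1000 to 2000 nucleotides 8 of 16 members were higher (50.0%, against 11.2% of all). There 1 was lower (6.25%, against 7.94% of all), and the median was 0.21. From 2000 to 4000 nucleotides 5 of 12 were higher (41.7%, against 13.2% of all). There 1 was lower (8.33%, against 12.1% of all), and the median was 0.13. Of the 4 longer members 3 were higher (75.0%, against 13.9% of all) and 0 were lower, against 15.8% of all, with a median of 0.36. These 4 were GCLM, SOD2, AKR1C1 and GSTM3, and their class rests on the canonical transcript chosen. AKR1C1 (6543 nucleotides) and GSTM3 (4122) were much longer there than their relatives AKR1C3 (1186) and GSTM2 (1166). The corresponding medians over all tested genes with a known length were -0.01, 0.02, 0.01 and 0.00, and the part of length in the members' changes was not tested.

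Some of the members share a locus or sequence with other genes. In the RefSeq annotation the spans of 23 of the 47, introns included, overlap another gene, and 11 overlap a protein-coding gene. Among the 11 are SOD2 (with WTAP and ACAT2), TXNRD1 (with EID3), GPX8 (with CDC20B) and OSGIN1 (with NECAB2). Pseudogenes named after a member exist for 18 members, 44 in all, with 8 for AKR1B1 and 7 for TXN. The libraries were made with a stranded kit, but the sources used here do not give whether Salmon was run with that strand. Shared exon sequence was not measured, so how far the counts of these genes are affected is not known.

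The wider pathway was described with a list of 63 other genes, of which 57 were tested, 10 higher (17.5%), 9 lower (15.8%) and 38 not called. Over all tested genes 11.3% were higher and 11.7% lower, and at or above 1000 normalized counts 17.6% and 16.7%, which is close to the shares of this list. The median log2 fold change of the list was 0.06. The called genes of that list with the largest changes at or above 100 normalized counts are given next. PTGES, a glutathione-dependent prostaglandin E synthase, had 430 normalized counts with PT2399 and 194 with vehicle (log2 fold change 1.15, SE 0.16, DESeq2 Wald adjusted p = 4.4e-12). EPHX1, microsomal epoxide hydrolase, had 4537 with PT2399 and 3099 with vehicle (0.55, SE 0.06, DESeq2 Wald adjusted p = 8.3e-19). GLRX, glutaredoxin, rose by 0.47 (SE 0.15) and NADK2, the mitochondrial NAD kinase, by 0.30 (SE 0.08) on the log2 scale.

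SLC7A11, IDH2, RBX1 and CHAC1 were lower. SLC7A11, the exchanger that brings in cystine for glutathione in return for glutamate and a known NRF2 target, had 5209 normalized counts with PT2399 and 6364 with vehicle (log2 fold change -0.29, SE 0.06, DESeq2 Wald adjusted p = 7.4e-05). IDH2, the mitochondrial NADP-dependent isocitrate dehydrogenase, had 2721 with PT2399 and 3543 with vehicle (-0.38, SE 0.07, DESeq2 Wald adjusted p = 1.6e-07). RBX1, a subunit of the ubiquitin ligase that KEAP1 serves, had 1403 with PT2399 and 1765 with vehicle (-0.33, SE 0.08, DESeq2 Wald adjusted p = 2.3e-04). CHAC1, which degrades glutathione, had 108 with PT2399 and 163 with vehicle (-0.59, SE 0.22, adjusted p = 0.029), a call lost when every p-value of the table was adjusted together (adjusted p = 0.0566). By role, 1 of 9 tested genes of NRF2 control was higher and 3 lower, 3 of 12 of NADPH supply higher and 1 lower, 1 of 6 of glutathione supply and turnover higher and 2 lower, and 1 of 6 glutathione enzymes higher and 1 lower. Of the remaining roles, thioredoxin and glutaredoxin genes had 1 of 11 higher and 2 lower. Reductases and detoxification genes had 2 of 9 higher and 0 lower, and heme and superoxide genes had 1 of 4 higher and 0 lower. Across all tested genes 11.3% were higher and 11.7% lower. The role groups are small, and differences between them were not tested.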

How the data were processed

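Polysome fractions of OSRC-2 cells were sequenced in 3 PT2399 and 3 vehicle libraries, grouped by the sample labels. Tools named in the submitters' processing notes are STAR 2.7.3a, Salmon, bcl2fastq 2.18 and DESeq2 1.22.1, and the build is hg38. The authors' deposited table holds no value of a single library. Its mean normalized count is a signal that the authors scaled by DESeq2 size factors. The log2 fold change was estimated by the authors without shrinkage. Its SE and the Wald score, the fold change over that SE, were deposited beside it. The deposited p-value is two-sided and was adjusted by the authors after filtering on the mean. The 14711 rows without an adjusted p are called untested here, although all but 4 of them hold an unadjusted p-value. These columns are the authors' own comparison and were used because no refit was possible.

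Intervals are the log2 fold change ± 1.96 SE, and group levels follow from the mean and the fold change. The arithmetic was tested on simulated data. Differences between genes were not tested. The members, the pathway list (up to 4 called genes in each direction with a mean of at least 100 were named) and the tests were chosen with earlier results of these data known. Coordinates and promoters are from RefSeq GRCh38.p14, and transcript lengths, known for 85.4% of tested genes, from GENCODE. Alternatives were stricter thresholds, adjustment over every p-value, a minimum mean, protein-coding rows, centring and weighting. Scripts ran in Python 3.11.15 with scipy 1.17.1, numpy 2.4.6, pandas 2.3.3 and matplotlib 3.10.9.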

Additional observations from a re-analysis of the deposited data

How the results depend on the processing

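No paired analysis was possible because the deposited table holds no value of a single library, and for the same reason no library could be left out and no batch or outlying library could be looked for. Where a log2 fold change of 1 or more in size was also required, 0 members were higher (18 without that limit) and 0 were lower (2 without it), 1 gene of the pathway list was higher (10 without it) and 0 were lower (9 without it), while 147 genes of the whole table were higher and 173 lower. At an adjusted p of at most 0.01, 15 members were higher and 2 lower, and 7 genes of the pathway list were higher and 4 lower, where 1219 of all 15634 tested genes were higher and 1331 lower. Adjustment over every p-value kept all 45 member calls and left 9 genes of the pathway list higher and 6 lower, where 1518 of 30341 genes were higher and 1598 lower. A minimum mean of 100 and protein-coding rows gave 18 higher and 2 lower members each. Of the 12219 tested genes at that mean 1756 were higher and 1780 lower (28.9% in either direction). Of the 12326 tested protein-coding genes 1702 were higher and 1671 lower (27.4%). The members' median log2 fold change of 0.14 became 0.19 as a mean weighted by precision, 0.14 relative to the median of all tested genes, and 0.17 as a weighted mean without AKR1B1, an alternative chosen after seeing the data. Precision followed abundance, with a median SE of 0.06 for members at or above 1000 normalized counts and 0.12 for the 10 tested members below that.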
